A study of Mus musculus with 6 samples.

Results

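Expression of 10 genes, namely the Notch receptors Notch1, Notch2 and Notch3, the ligand Jag1, the fringe enzyme Lfng, the target genes Hes1, Hey1, Hey2 and Heyl, and the transcription factor Sox2, was examined in the cochlear duct of mice at postnatal day 8. The genes were chosen by name, and all 10 were found among the 14865 genes of the deposited table. RNA was sequenced from 3 libraries of Gfi1+/+ mice and 3 libraries of Gfi1cre/+ mice, all labelled C57BL/6. In Gfi1cre/+ mice the coding sequence of Cre recombinase stands in place of 1 copy of Gfi1 and is driven by the Gfi1 locus, whereas Gfi1+/+ mice keep both copies. A Gfi1+/+ library thus stands for 1 animal, with both its cochleae (2), whereas a Gfi1cre/+ library averages over 3 animals and 6 cochleae. The labels name no treatment.

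Notch signalling passes between cells that touch. A ligand such as Jag1 on a cell binds a Notch receptor on its neighbour, the receptor is cut first by the protease Adam10 and then by the gamma-secretase complex, and the freed intracellular part joins Rbpj and a Mastermind protein to switch on Hes and Hey genes, which encode transcriptional repressors. In the developing cochlea, hair cells (HCs) signal in this way to the cells around them, which become supporting cells, and Jag1 and Sox2 are known from the prosensory patch and later from supporting cells. The pathway is also active in blood vessels, where Notch3 and Heyl are known from pericytes and smooth muscle cells, and Sox2 is also made by glia.

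Values are reads per gene after division by 1 size factor per library, called normalized reads below, and the values of a genotype are listed in the order of its replicate numbers. Recovered reads per library ran from 13603908 to 16136022 in Gfi1+/+ and from 17939607 to 19359753 in Gfi1cre/+. All 16 supporting cell markers of a fixed list were found, including Prox1, Fgfr3 and Gjb2, and their summed level was between 129188 and 143868 normalized reads in Gfi1+/+ and between 134095 and 139956 in Gfi1cre/+. All 8 endothelial markers and all 8 markers of pericytes and smooth muscle cells were found as well, so the levels below belong to the whole duct and not to supporting cells alone. Their sums ran from 8177 to 8823 and from 9939 to 11454 normalized reads in Gfi1+/+, and from 8130 to 9252 and from 10514 to 11361 in Gfi1cre/+. The library of Gfi1+/+ replicate 1 stood apart, with 8786 normalized reads summed over 8 neuron markers where the other 5 libraries had between 1135 and 2762, and a principal component score of -44.0 where the others lay between -0.304 and 16.2. The sum of 4 Y-linked genes was at most 2.10 normalized reads in each Gfi1+/+ library and between 794 and 1621 in the Gfi1cre/+ libraries. Xist, an RNA of female cells, had 7338, 7936 and 8138 normalized reads in Gfi1+/+ and 5359, 4987 and 2301 in Gfi1cre/+. The Gfi1cre/+ pools thus held both sexes and the Gfi1+/+ libraries showed no male reads to speak of, so genotype and the sex of the mice cannot be told apart. Gfi1 itself had 147, 160 and 152 normalized reads in the Gfi1+/+ libraries and 136, 130 and 139 in the Gfi1cre/+ libraries, so every Gfi1cre/+ library was below every Gfi1+/+ library (log2 fold change -0.18, adjusted p = 0.999 in limma's test with Benjamini-Hochberg adjustment). The same held for 4.07% of all genes tested. According to the authors, the exons that Cre does not replace still add reads to Gfi1, so these values do not measure the functional transcript alone.

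None of the 10 genes differed between Gfi1cre/+ and Gfi1+/+ beyond the spread of the libraries. In limma's test on log2(normalized reads + 1), 0 of the 10 genes had an adjusted p-value under 0.05, where 0.0277% of the 14455 genes tested did. The genes that did were the 4 Y-linked genes summed above. Before adjustment 0 of the 10 reached 0.05, where 3.04% of the genes tested did, 1.02% higher and 2.02% lower in Gfi1cre/+. By edgeR's quasi-likelihood test and by DESeq2 on the recovered reads, 0 of the 10 were likewise past either threshold. The Gfi1cre/+ and Gfi1+/+ libraries overlapped in all 10 genes, whereas they did not overlap in 7.52% of the genes tested, 3.45% higher and 4.07% lower in Gfi1cre/+. The log2 fold changes, Gfi1cre/+ against Gfi1+/+, ran from -0.14 for Sox2 to 0.086 for Heyl with a median of -0.0015, beside a median of -0.00012 over all genes tested. There were 5 genes with a value above 0 and 5 with a value below it, and 49.9% of all genes tested were above 0. An absolute log2 fold change under 0.15 was found in all 10 genes and in 83.1% of all genes tested. That limit lies just above the largest of the 10 values, that of Sox2, so these shares are not a test of the 10 genes. The adjusted p-value was 0.999 for each of the 10 genes (limma, Benjamini-Hochberg over all genes tested). A p-value of this size does not show that the genotypes were equal, and the 95% intervals given with each gene below state which differences the data leave possible. In bulk RNA, fewer cells of a type and less RNA per cell cannot be told apart.

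**Figure D1:**
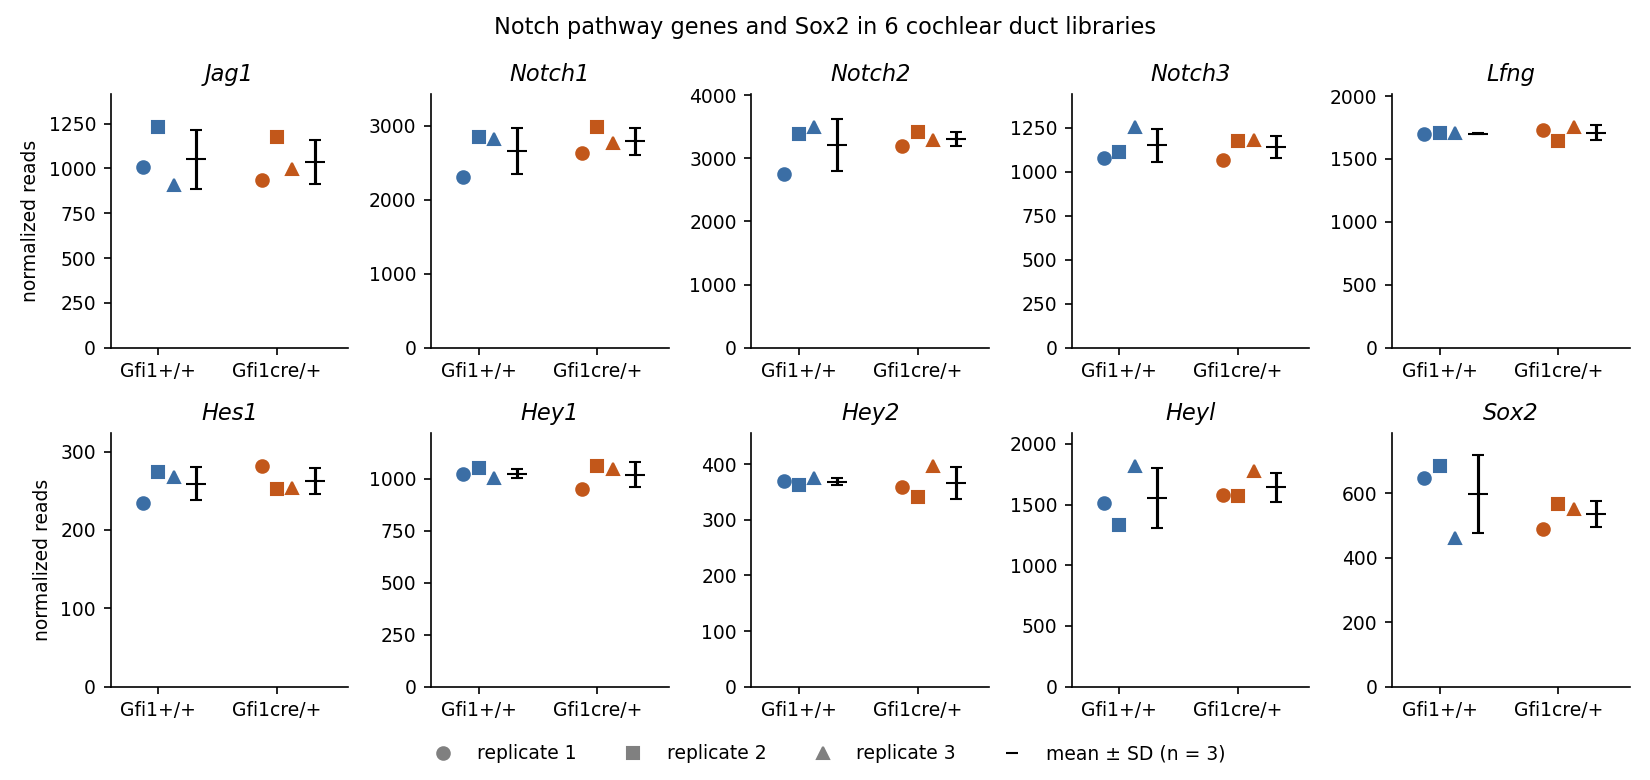
Normalized reads (vertical axis, from 0) of each of the 10 genes in the Gfi1+/+ (blue) and Gfi1cre/+ (orange) libraries, with the replicate number as the symbol and the mean ± SD of 3 libraries as the black bar. The genotypes overlap in every panel, and the Gfi1+/+ bar is widest relative to its mean for Sox2 (598 ± 120 normalized reads) and narrowest for Lfng (1701 ± 4.48).

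Jag1, the ligand that marks the prosensory patch, is found at 137081456 to 137116644 of chromosome 2 (minus strand, build GRCm38, as for all positions) and has 26 exons in its longest transcript. It had 1007, 1233 and 910 normalized reads in the Gfi1+/+ libraries, and 938, 1175 and 999 in the Gfi1cre/+ libraries. In each genotype 1 library stood above the other libraries by more than the group means differed, since these were 1050 ± 166 (SD, n = 3) in Gfi1+/+ and 1038 ± 123 in Gfi1cre/+. Between the genotypes the log2 fold change was -0.013 with a 95% interval from -0.28 to 0.26, so a fold between 0.823 and 1.19 was left possible. Without Gfi1+/+ replicate 2, its highest library, the log2 fold change of Jag1 was 0.11.

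Notch1 is the receptor through which HCs and their neighbours sort their fates. Its position is chromosome 2, minus strand, 26457903 to 26516663, with 34 exons in its longest transcript. It had 2302, 2854 and 2827 normalized reads in the Gfi1+/+ libraries, and 2626, 2988 and 2765 in the Gfi1cre/+ libraries. The lowest of the 6 values was that of Gfi1+/+ replicate 1, and the other Gfi1+/+ libraries lay within the range of Gfi1cre/+. The log2 fold change was 0.075 (95% interval -0.13 to 0.28), and it was -0.026 without Gfi1+/+ replicate 1, so the direction rested on that library.

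Notch2 (chromosome 3, plus strand, 98013527 to 98150361) is a close paralogue of Notch1 with the same number of exons, 34, in its longest transcript. It had 2749, 3385 and 3503 normalized reads in the Gfi1+/+ libraries, and 3202, 3421 and 3296 in the Gfi1cre/+ libraries. As for Notch1, Gfi1+/+ replicate 1 was lowest. The log2 fold change of 0.049 (95% interval -0.15 to 0.25) turned to -0.059 without that library. Whether the larger neuronal share of that library has a part in its low Notch1 and Notch2 values was not tested.

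Notch3 (chromosome 17, minus strand, 32120820 to 32166852), the receptor of pericytes and vascular smooth muscle, had 1079, 1114 and 1256 normalized reads in the Gfi1+/+ libraries. It had 1069, 1176 and 1178 in the Gfi1cre/+ libraries, which lay within or next to the Gfi1+/+ range. Notch3 had a log2 fold change of -0.0091 (95% interval -0.18 to 0.16). Its highest value was in Gfi1+/+ replicate 3, which also had the largest sum over the pericyte and smooth muscle markers, 11454 normalized reads, and the part of these cells in the value was not tested. Without that library the log2 fold change was 0.056, and without Gfi1cre/+ replicate 1 it was 0.037. In the GENCODE annotation, exon bases of Notch1, Notch2 and Notch3 are shared with other annotated genes. Notch1 shares 6.77% of its exon bases with 0610009E02Rik and 2.91% with Gm13568, and Notch3 shares 6.03% with Gm17276, all on the opposite strand, and the strand setting of the counting is not given in the sources used here. Notch2 shares 5.02% with Gm42820 on its own strand. Reads on those bases cannot be assigned with certainty. No exon base of the other 7 genes was shared.

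Lfng encodes lunatic fringe, a glycosyltransferase that lengthens sugars on Notch and so tunes which ligands it answers to. The gene lies on the plus strand of chromosome 5 from 140607320 to 140615545. It was the steadiest of the 10 genes, with 1696, 1702 and 1705 normalized reads in the Gfi1+/+ libraries, and 1727, 1642 and 1757 in the Gfi1cre/+ libraries. The Gfi1+/+ values lay inside the Gfi1cre/+ range, and their spread, with an SD of 4.48 normalized reads, was smaller than the counting error of a single library, 2.70% at the fewest recovered reads, 1374. The log2 fold change was 0.0058 (95% interval -0.11 to 0.12), the narrowest interval of the 10 genes, so a fold between 0.926 and 1.09 was left possible.

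Lfng and Hey2 are printed here because, of the 7 members with an entry in the RefSeq promoter table (GRCm38.p6, 250 bases before to 50 bases after the start), they were the ones that held the motif GTGGGAA on either strand, which contains TGGGAA, the core sequence that Rbpj is known to bind. Capitals mark GTGGGAA or, on the other strand, its reverse complement. The Lfng run also holds the shorter TGGGAA on the other strand, at -135 to -130 from the RefSeq start, left in lower case. Each run is given along the strand of its gene.
Lfng, chr5:140607172-140607298, plus strand: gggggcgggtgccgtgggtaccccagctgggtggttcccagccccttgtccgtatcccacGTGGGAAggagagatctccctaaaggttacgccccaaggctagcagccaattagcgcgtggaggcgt
Hey2, chr10:30842924-30843033, minus strand: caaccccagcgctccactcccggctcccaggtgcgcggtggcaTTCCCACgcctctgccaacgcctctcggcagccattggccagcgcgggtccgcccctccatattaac
Hey2, chr10:30842770-30842798, minus strand: tgggctgcagcGTGGGAAagaacctccag
Counted from the RefSeq start of the gene, the motif lies at -109 to -103 in Lfng, and at -207 to -201 and -4 to 3 in Hey2. GTGGGAA occurred on either strand in 6.38% of the 32851 promoter windows of this length, and TGGGAA in 25.6%. Neither string occurred in the windows of Notch1, Notch2, Notch3, Jag1 and Sox2. The windows of Notch1 (26503773 to 26504072) and Sox2 (34649745 to 34650044) do not hold the start of the gene at the positions given here. Hes1, Hey1 and Heyl had no entry. A match is a string of letters and not a measured binding site, and both genes that hold it had log2 fold changes near 0, 0.0058 for Lfng and -0.015 for Hey2.

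Among the target genes, Hes1 (chromosome 16, plus strand, 30064384 to 30067796), a repressor that answers to Notch in many tissues, had the fewest normalized reads of the 10. It had 235, 274 and 268 in the Gfi1+/+ libraries, and 282, 252 and 253 in the Gfi1cre/+ libraries, resting on between 190 and 324 recovered reads. The lowest and the highest value thus belonged to replicate 1 of each genotype. Hes1 had a log2 fold change of 0.020 (95% interval -0.19 to 0.23). It was -0.049 without Gfi1+/+ replicate 1 and -0.033 without Gfi1cre/+ replicate 1.

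Hey1 (chromosome 3, minus strand, 8663359 to 8667256), the Hes-related repressor known from prosensory cells and blood vessels, had 1021, 1049 and 1003 normalized reads in the Gfi1+/+ libraries. It had 949, 1063 and 1046 in the Gfi1cre/+ libraries, which spanned the Gfi1+/+ values. For Hey1 the log2 fold change was -0.0088 (95% interval -0.15 to 0.13), and it was 5.6e-05 after centring each library on its median.

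Hey2 (chromosome 10, minus strand, 30832359 to 30842801), which is known to help keep pillar cells from becoming HCs, had 369, 362 and 374 normalized reads in the Gfi1+/+ libraries. It had 359, 341 and 397 in the Gfi1cre/+ libraries, on both sides of the Gfi1+/+ libraries. Hey2 had a log2 fold change of -0.015 (95% interval -0.19 to 0.16). Without Gfi1cre/+ replicate 2 it was 0.034.

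Heyl (chromosome 4, plus strand, 123233556 to 123249875), the Hey gene known from vascular smooth muscle, varied more between libraries. It had 1515, 1334 and 1821 normalized reads in the Gfi1+/+ libraries, and 1581, 1567 and 1774 in the Gfi1cre/+ libraries. Both the lowest and the highest library were Gfi1+/+. The log2 fold change was 0.086 (95% interval -0.15 to 0.33), and it was -0.020 without Gfi1+/+ replicate 2. Heyl was highest in the library that was also highest in Notch3 and in the pericyte and smooth muscle sum, Gfi1+/+ replicate 3, and the part of these cells was not tested. Without that library the log2 fold change of Heyl was 0.20 (unadjusted p = 0.0214, adjusted p = 0.221, limma with Benjamini-Hochberg adjustment).

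Sox2, which prosensory cells need and supporting cells keep, is a gene of 1 exon on the plus strand of chromosome 3, from 34650405 to 34652461. It showed the largest difference in size and the widest interval of the 10 genes. It had 647, 686 and 461 normalized reads in the Gfi1+/+ libraries, and 490, 566 and 551 in the Gfi1cre/+ libraries. The higher Gfi1+/+ libraries lay above all Gfi1cre/+ libraries, and Gfi1+/+ replicate 3 lay below them. The means were 598 ± 120 (SD, n = 3) and 536 ± 40.4, and the log2 fold change was -0.14 (standard error 0.138, 95% interval -0.45 to 0.17, unadjusted p = 0.339 in limma), which left a fold between 0.731 and 1.13 possible. The exact permutation test over libraries gave a two-sided p of 0.5, where 0.1 is the smallest that 3 libraries against 3 allow.

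The size of the Sox2 difference moved with single libraries, while its sign did not. Without Gfi1+/+ replicate 3 the log2 fold change was -0.32 (unadjusted p = 0.00254, adjusted p = 0.119, limma with Benjamini-Hochberg adjustment), and without Gfi1+/+ replicate 2 it was -0.030. Without replicate 1 of Gfi1+/+ it was -0.072 and without replicate 1 of Gfi1cre/+ it was -0.077. In the fit without Gfi1+/+ replicate 3, however, 16.2% of all genes tested had an unadjusted p-value under 0.05, and 2 of the 10 genes, Sox2 and Heyl, were among them. The summed level of the supporting cell markers was also lowest in Gfi1+/+ replicate 3, at 129188 normalized reads. That low sum came from Tectb, with 35886 normalized reads there against 52717 and 58321 in Gfi1+/+ replicates 1 and 2. On the log2 scale averaged over the 16 markers, Gfi1+/+ replicate 3 deviated by 0.010 from the mean of all libraries. This was near the 0.018 and 0.015 of Gfi1+/+ replicates 1 and 2. Glial markers, relevant since glia make Sox2, summed to between 40130 and 63734 normalized reads in Gfi1+/+ and between 45585 and 54653 in Gfi1cre/+. The part of either cell type in the Sox2 values was not tested. Jag1 was likewise highest in Gfi1+/+ replicate 2 and lowest in Gfi1+/+ replicate 3. For the list of supporting cell markers the median of the log2 fold changes was -0.028, with 5 of its 16 genes above 0, 11 below and 0 reaching 0.05 before adjustment (limma).

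**Figure D2:**
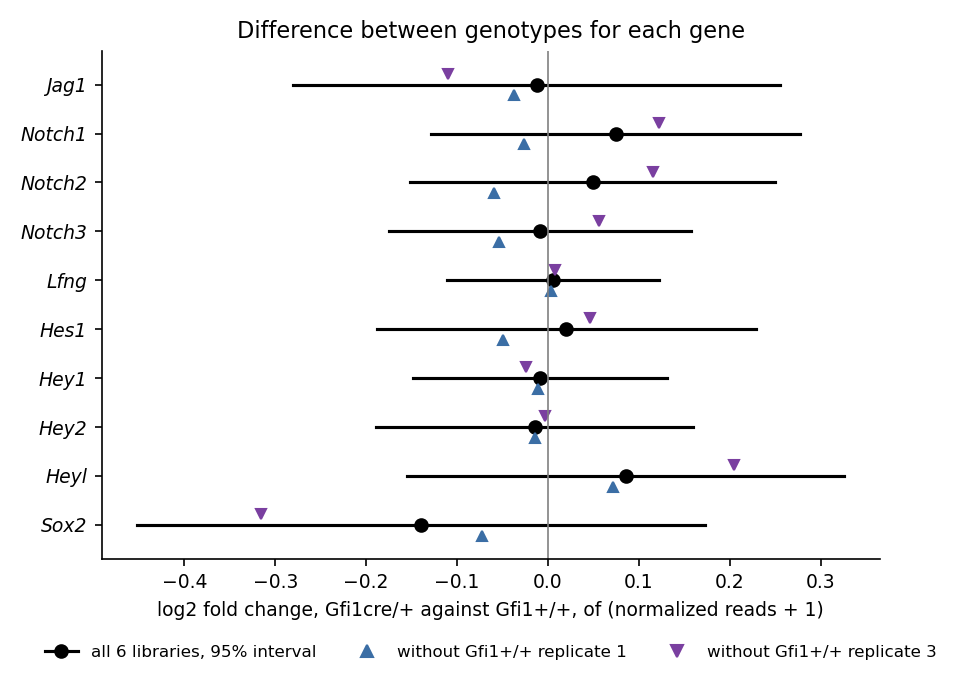
Log2 fold change of each gene, Gfi1cre/+ against Gfi1+/+, on the log2(normalized reads + 1) scale, with its 95% interval from limma (black) and the value without Gfi1+/+ replicate 1 (blue) or replicate 3 (purple). All 10 intervals contain 0, from the narrowest for Lfng (-0.11 to 0.12) to the widest for Sox2 (-0.45 to 0.17), and the points for Notch1, Notch2 and Hes1 change sides without Gfi1+/+ replicate 1 and that for Notch3 without Gfi1+/+ replicate 3.

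The spread between libraries differed among the 10 genes. The SD of log2(normalized reads + 1) between the Gfi1+/+ libraries ran from 0.0038 for Lfng through 0.024 for Hey2 and 0.033 for Hey1 to 0.23 for Heyl and 0.31 for Sox2, beside a median of 0.12 over all genes tested. For Lfng, Hey2 and Hey1 the Gfi1+/+ SD was 0.263%, 1.66% and 2.26% of the mean. The counting error at their fewest recovered reads was larger, 2.70%, 5.78% and 3.48%. Their small SDs therefore cannot be read as a trait of these genes. Between the pooled Gfi1cre/+ libraries the SD of log2(normalized reads + 1) ran from 0.048 for Notch2 to 0.17 for Jag1, beside a median of 0.074. It was 0.11 for Hey2 and 0.089 for Hey1. The Gfi1+/+ SD was the larger in 7 of the 10 genes and in 71.2% of all genes tested. Both the lowest and the highest of the 6 libraries were Gfi1+/+ in 4 of the 10 genes and in 38.5% of all genes tested.

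To compare levels between genes, normalized reads were divided by the length of the exons of each gene in kilobases (kb). Lfng was the highest at 681 ± 15.1 normalized reads per kb (SD over 6 libraries), which placed it at the 90.9th percentile of the 14388 tested genes with a length. Hey1 (313 ± 12.8), Heyl (313 ± 34.8), Notch2 (302 ± 25.1) and Sox2 (276 ± 42.3) followed, with overlapping ranges between neighbours in this series. Notch1 (192 ± 16.8) and Jag1 (179 ± 22.4) overlapped with each other. Notch3 (142 ± 8.85) and Hes1 (128 ± 8.54) did so too. Hey2 was the lowest at 79.9 ± 4.07 per kb, at the 40.7th percentile, and the only member below the median of 111 per kb over the tested genes. In 4 of the 9 steps of this order the ranges did not overlap, namely below Lfng, below Sox2, below Jag1 and below Hes1. The order of the genotype means was the same in both genotypes except that Hey1 and Heyl changed places. With the length of the longest transcript in place of all exons, 5 of the 10 genes changed their place. The largest move was that of Notch3 from place 8 to place 10. On that length Hey2 had 144 normalized reads per kb and Notch3 143, so Hey2 was not the lowest. The median of the tested genes was not computed on that length.

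**Figure D3:**
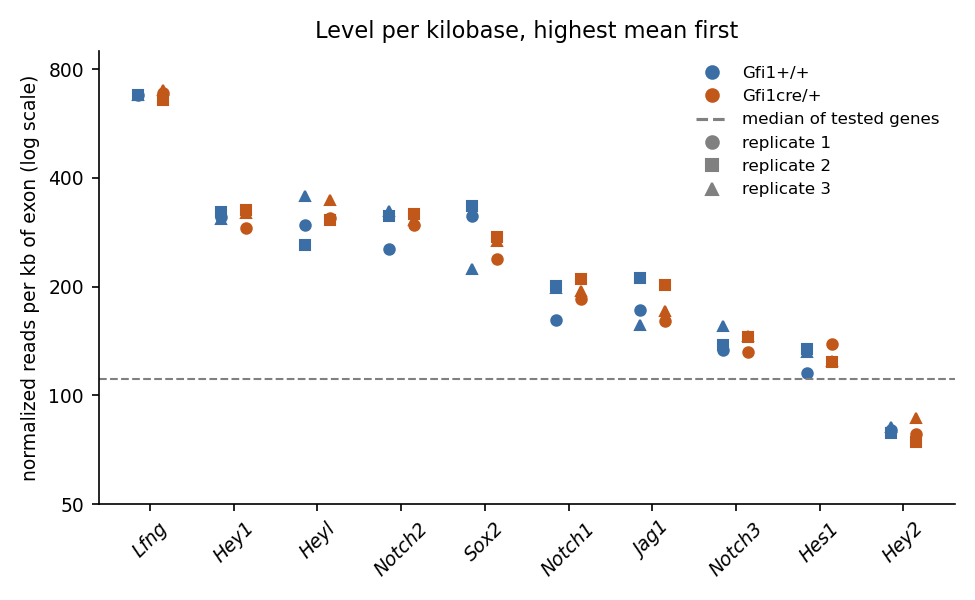
Normalized reads per kb of exon (log axis) of the 10 genes in each Gfi1+/+ (blue) and Gfi1cre/+ (orange) library, ordered by the mean over 6 libraries. Lfng lies above all the others at 656 to 701 per kb, Hey2 lies at 74.2 to 86.5 below the dashed median of the tested genes, and the colours are mixed within each gene.

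Shares within a family were computed per kb of all exons in each library, and they depend on that choice of length. Per kb of the longest transcript Notch1 had 287 normalized reads and Notch2 310, against 192 and 302 per kb of all exons. Hey2 had 144 against 79.9. Of the summed level of the 4 receptor genes, Notch2 held between 42.1% and 43.7%, Notch1 between 26.1% and 28.2%, Notch3 between 19.2% and 22% and Notch4 between 9.19% and 10.98% over the 6 libraries. The share of Notch1 was 26.9% ± 0.955 (SD, n = 3) in Gfi1+/+ and 27.4% ± 0.645 in Gfi1cre/+. Of the summed level of 4 ligand genes, Jag1 held 53.3% ± 4.62 in Gfi1+/+ and 50.8% ± 2.98 in Gfi1cre/+, with a range from 47.95% to 56.0% over the 6 libraries. Dll4 followed with 19% to 26.1%, Jag2 with 20.1% to 22.8% and Dll1 with 3.9% to 6.27%. Hey1 held between 35.1% and 40.4% of the 4 target genes, Heyl between 32.8% and 40.6%, Hes1 between 14.1% and 17.0% and Hey2 between 8.94% and 9.99%. Lfng held between 60.4% and 63.5% of the 3 fringe genes, with Rfng at 29.2% to 32.6% and Mfng at 6.996% to 7.83%. In each of these shares the genotypes differed by less than the larger of their SDs.

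Of 58 further genes of the pathway, 52 were found and tested, and the others, Hes5 among them, were not analysed here. At an adjusted p-value under 0.05, 0 of the 52 genes differed between the genotypes in limma's test, and 2 reached 0.05 before adjustment, 1 higher and 1 lower in Gfi1cre/+, which is 3.85% beside the 3.04% of all genes tested. Their libraries did not overlap between the genotypes in 6 genes, or 11.5%, beside 7.52% of all genes, and 5 of these 6 belong to the 12 genes of ubiquitination and sorting. The median log2 fold change of the 52 genes was 0.034, with 32 above 0 and 20 below, and it was -0.0033 without Gfi1+/+ replicate 1.

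Among the other ligands and the remaining receptor, no gene reached 0.05 before adjustment (limma). Dll1, a ligand made by young HCs, had few reads, with 56.8, 67.0 and 59.1 normalized reads in the Gfi1+/+ libraries and 87.9, 66.6 and 56.6 in the Gfi1cre/+ libraries. Its log2 fold change was 0.18, and 0.014 without Gfi1cre/+ replicate 1. Jag2, the other ligand of HCs, had between 443 and 533 normalized reads in Gfi1+/+ and between 521 and 537 in Gfi1cre/+, and its log2 fold change was 0.11, and 0.044 without Gfi1+/+ replicate 1 or 0.18 without Gfi1+/+ replicate 2. Notch4, a receptor of endothelial cells, had between 453 and 675 in Gfi1+/+ and between 554 and 592 in Gfi1cre/+.

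The 2 genes with an unadjusted p-value under 0.05 encode ubiquitin ligases of the pathway. Neurl1b, a Neuralized protein that helps ligands to be taken up into the cell, had 116, 129 and 134 normalized reads in the Gfi1+/+ libraries, and 100.1, 91.4 and 95.3 in the Gfi1cre/+ libraries. All Gfi1cre/+ libraries were below all Gfi1+/+ libraries, with a log2 fold change of -0.40 (standard error 0.117, unadjusted p = 0.00789, adjusted p = 0.999, limma with Benjamini-Hochberg adjustment). Without each library in turn this value lay between -0.46 and -0.35. Dtx2, a Deltex protein that binds the intracellular part of Notch, had 391, 399.96 and 403 normalized reads in the Gfi1+/+ libraries, and 438, 447 and 462 in the Gfi1cre/+ libraries. All Gfi1cre/+ libraries were above all Gfi1+/+ libraries, by 0.17 on the log2 scale (standard error 0.0630, unadjusted p = 0.0228, adjusted p = 0.999, limma with Benjamini-Hochberg adjustment), and by between 0.15 and 0.19 without each library in turn. Without Gfi1+/+ replicate 1 the unadjusted p-value of Dtx2 was 0.0561 in limma's test, and Dtx2 also missed 0.05 before adjustment without Gfi1cre/+ replicate 2 and with DESeq2. The other 4 genes whose libraries did not overlap were Numbl, Itch, Dtx3l and Tle4, all higher in Gfi1cre/+, with log2 fold changes of 0.086 (0.049 without Gfi1+/+ replicate 1), 0.092, 0.22 and 0.11. They are named after their values were seen.

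Adam10 and the nuclear partners of the receptor gave no call. Adam10, which makes the first cut, had a log2 fold change of -0.0041 with a 95% interval from -0.14 to 0.13. Rbpj, the DNA-binding partner, had 600, 576 and 418 normalized reads in the Gfi1+/+ libraries and 439, 413 and 526 in the Gfi1cre/+ libraries, so that its genotypes overlapped around a log2 fold change of -0.20 (95% interval -0.52 to 0.12). As for Sox2, Gfi1+/+ replicate 3 lay apart from the other Gfi1+/+ libraries, and the log2 fold change of Rbpj was -0.36 without it and -0.10 without Gfi1+/+ replicate 1, the ends of its range with each library left out. Maml1, a Mastermind coactivator, had a log2 fold change of 0.11 (95% interval -0.055 to 0.26), and 0.045 without Gfi1+/+ replicate 1.

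**Figure D4:**
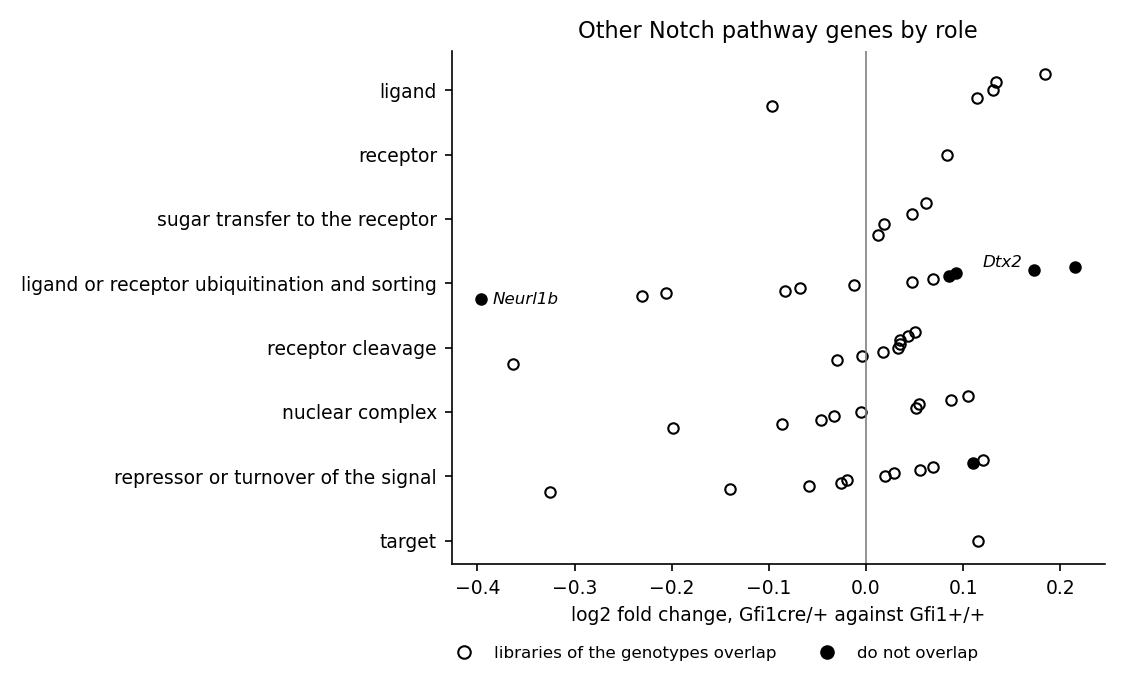
Log2 fold change, Gfi1cre/+ against Gfi1+/+, of the 52 other pathway genes, in rows by role, with filled points where the libraries of the genotypes did not overlap and the names of the 2 genes that reached 0.05 before adjustment (limma). The points lie between -0.40 (Neurl1b) and 0.22, and the 6 filled points are 5 higher and 1 lower.

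The genes whose profile over the 6 libraries was most like that of a member were found by the root mean square difference of log2(normalized reads + 1) after centring each gene on its mean, among 10364 other genes whose mean reached 200 normalized reads. With 6 libraries and this many genes, close profiles also arise between unrelated genes. For Sox2 the nearest were Galnt16 (0.041), Rbm24 (0.050) and Isl1 (0.057), against a root mean square of 0.20 for the profile of Sox2 itself. Isl1, a transcription factor of the prosensory lineage, had 949, 943 and 708 normalized reads in the Gfi1+/+ libraries and 739, 847 and 771 in the Gfi1cre/+ libraries, and was, like Sox2, lowest in Gfi1+/+ replicate 3. For Notch1 the nearest were Fat1 (0.020), Tenm3 (0.021) and Adamtsl1 (0.026), all lowest in Gfi1+/+ replicate 1 as Notch1 was, against 0.12 for its own profile. For Hes1 they were Gps2 (0.018), Cdk20 (0.019) and Atxn1 (0.021), against 0.088.

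**Figure D5:**
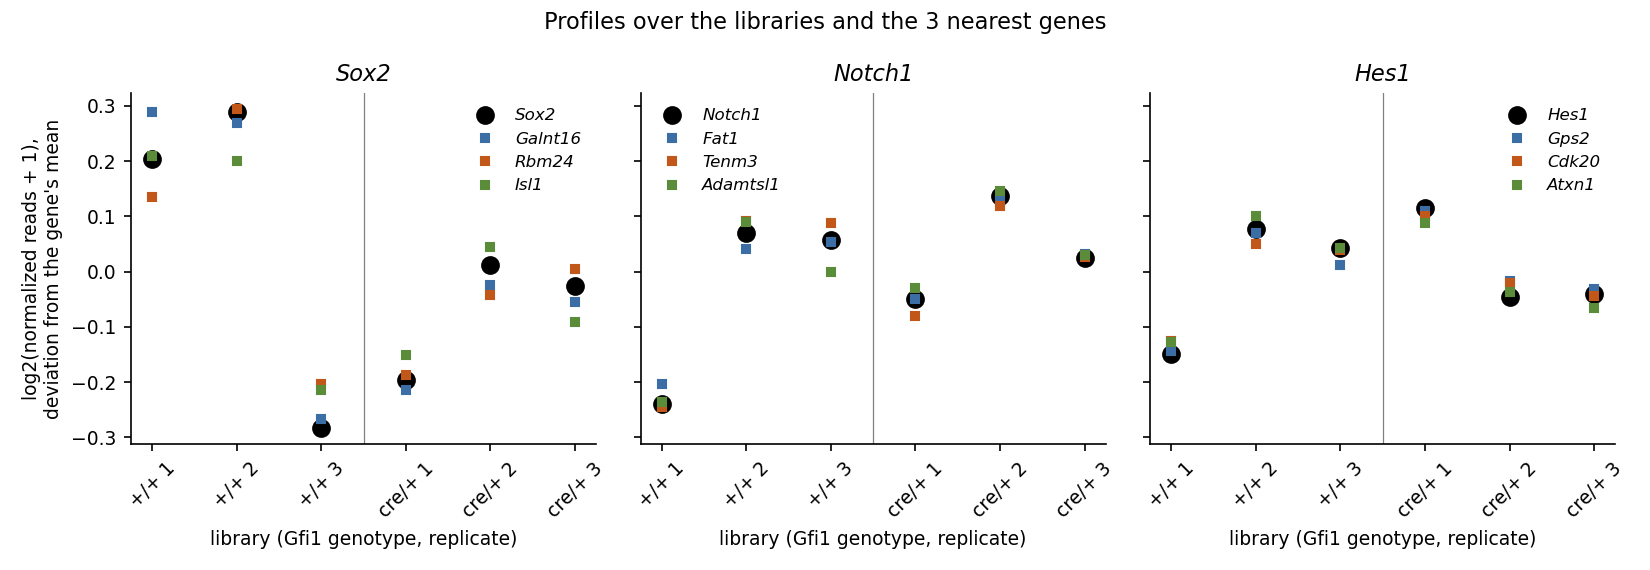
Deviation of log2(normalized reads + 1) from the mean of each gene (vertical axis) in the 6 libraries (horizontal axis, Gfi1+/+ left and Gfi1cre/+ right of the line) for Sox2, Notch1 and Hes1 (black circles) and their 3 nearest genes (coloured squares). Sox2, Galnt16, Rbm24 and Isl1 are high in Gfi1+/+ replicates 1 and 2 and low in Gfi1+/+ replicate 3, and Notch1 and its nearest genes are low in Gfi1+/+ replicate 1.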

How the data were processed

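The authors aligned paired-end reads to mm10 with TopHat, counted uniquely mapped reads on genes with HTSeq, kept genes with 40 reads or more and tested them with DESeq. Versions, annotation and strand setting are not given in the sources used here. The authors deposited a signal per gene and library described as quantile-normalized. However, all values were whole multiples of 1 step per column (tolerance 0.006), so reads divided by a size factor were recovered (100% of values). Column names give genotype and replicate number, which match the sample labels (the letter F in them is unexplained). The 14455 genes that reached 40 normalized reads in 1 library or more were tested with limma 3.58.1 (R 4.3.3) on log2(value + 1), genotype only, eBayes with a trend, two-sided, Benjamini-Hochberg adjustment over all tested genes. The scale understates changes of low genes. A count of 0 allows 3 reads, between 2.61 and 3.70 normalized reads, for counting error only. On the recovered reads, edgeR 4.0.16 (quasi-likelihood) called 4 genes and DESeq2 1.42.0 called 10 at an adjusted p-value under 0.05. Other alternatives were other pseudocounts, minima and scalings, a replicate block, and libraries left out. Exon lengths and positions came from GENCODE M21 (GRCm38). The members, pathway and marker lists were written with earlier results of these data known. Genes named were the members, 8 fixed pathway genes (1 of them is not reported here), up to 5 others with an unadjusted p-value under 0.05, the first 3 of each marker list where a result touches them, Gfi1, genes sharing exon bases with a member, and the 3 nearest profiles of Sox2, Notch1 and Hes1. Outside this rule, Dll4, Mfng and Rfng are named to complete their families, and 4 genes for libraries that did not overlap. Tectb is named for its weight in a marker sum, and Xist and the Y-linked genes concern the sex of the mice.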

Additional observations from a re-analysis of the deposited data

How the results depend on the processing

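None of the 10 genes passed an adjusted p-value of 0.05 under any alternative. Outside the fits that leave out a library, 98 of 100 log2 fold changes kept their direction. The exceptions were Lfng under quantile normalization (-0.0028) and Hey1 under median centring (5.6e-05). Part of the 98 was fixed in advance. The fits on all listed genes, with a minimum mean, without the trend or with the replicate block cannot move a log2 fold change. With 1 library left out, 45 of 60 log2 fold changes kept their direction, Sox2 in all 6 fits. The ranges were -0.026 to 0.13 for Notch1, -0.059 to 0.12 for Notch2, -0.053 to 0.056 for Notch3, -0.11 to 0.11 for Jag1, -0.015 to 0.034 for Lfng, -0.049 to 0.063 for Hes1, -0.040 to 0.042 for Hey1, -0.076 to 0.034 for Hey2, -0.020 to 0.20 for Heyl and -0.32 to -0.030 for Sox2. Members at an unadjusted p-value under 0.05 numbered 0 to 2 over these fits. Over all genes, the 4 at an adjusted p-value under 0.05 were the Y-linked genes. They became 0 when a mean of 200 normalized reads was required, since that minimum left these 4 genes out of the test. The count was 10 with DESeq2 and 0 to 48 with a library left out. The 439 at an unadjusted p-value under 0.05 became 229 with that minimum and 216 to 2340 with a library left out. The 2 other pathway genes at an unadjusted p-value under 0.05 became 1 with that minimum, since it left Neurl1b out of the test. They became 1 with DESeq2, where Dtx2 missed 0.05. With a library left out the count was 1 to 13, 13 being that without Gfi1+/+ replicate 3. The cause was not tested. The labels do not say whether the replicate numbers pair the samples. Correlations of deviations were -0.0944, 0.107 and -0.0326 for replicates 1, 2 and 3, which cannot decide it with 3 libraries per genotype. With the replicate block 4 genes in all and 0 of the 10 were called. Among the 10 genes, Hes1 had the fewest reads, with a counting error of 7.25% at 190 reads.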
